A study of Danio rerio with 18 samples.

Results

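The long arm of zebrafish chromosome 4 was examined in ATAC-seq peak lists of 3 liver cell types, from fish with and without liver injury. ATAC-seq uses a transposase that inserts sequencing adapters where DNA is not covered by nucleosomes, so a peak marks a nucleosome-free region. The members were all peaks on chromosome 4 that start at or beyond 30 Mb on the genome build GRCz11. They numbered 2533 of 308216 peaks, taken over 6 lists. The rest of chromosome 4 held 8437 peaks and the 24 other chromosomes held 297246. The rule for members used position only and no measured value, but it was chosen with earlier results of these data known.

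The cells came from adult female fish of AB background. Hepatocytes (HEPs), which carry out most liver metabolism, were sorted by dsRed under the fabp10a promoter in Tg(fabp10a:dsRed). Hepatic stellate cells (HSCs), which store vitamin A and produce scar matrix in injury, were sorted by EGFP in Tg(hand2:EGFP). Endothelial cells (ECs), which line the vessels, were sorted by mCherry in Tg(kdrl:ras-mCherry). Each cell type therefore came from its own transgenic line, and cell type and line cannot be told apart. Fish received 6 intraperitoneal injections within 2 weeks, either of thioacetamide (TAA, a liver toxin) at 500 mg/kg or of a control liquid. The study gives the control both as sterile water and as saline. Each of the 18 libraries was made from 60000 sorted cells. Fewer control fish are given for the study than there are control libraries, so the control libraries cannot each have come from separate fish if that number is complete. The authors combined the 3 libraries of each group into 1 peak list, so no replicate error exists for any value below and no test across replicates was possible. Intervals are 95% intervals that cover counting error over peaks only, and neighbouring peaks are not independent.

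The long arm of chromosome 4 is known as a special part of the zebrafish genome. It is rich in repeats, replicates late, and carries heterochromatin, the compact form of chromatin that a transposase enters poorly. It holds repeated gene families, among them 5S ribosomal RNA genes, zinc finger genes and genes of the NLR family of immune receptors, and in wild strains it is linked to sex. Families of near-identical copies are hard for short reads, since a read that matches several copies cannot be assigned to one of them. The authors filtered reads by quality, with no cutoff stated, and how such reads were treated is not given in the sources used here. The authors' methods include the removal of peaks over low-complexity sequence, and whether the lists used here had passed that step was not checked. Gene positions on GRCz11 were not used here, so peaks are described by position alone, and the sorted cell types were not checked against their marker genes.

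The 6 lists held 41563 to 61245 peaks. Depth is unknown because read counts are not part of the lists. The EC control list stood apart from the other 5 lists genome-wide. Its Jaccard index with them (the base pairs that both lists cover, as a part of those that either covers) was 0.291 to 0.378 over the 24 other chromosomes, against 0.547 to 0.698 for the 10 pairs without it. The highest index, 0.698, was that of TAA HSCs and TAA ECs. Within a cell type, control and TAA lists had 0.667 in HEPs, 0.625 in HSCs and 0.291 in ECs. Results on ECs after TAA rest on the EC control list, and the sharing across lists is given below with and without it.

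Called peaks were sparse on the long arm in every cell type, with no adjustment for sequence to which short reads cannot be assigned. The arm held 321 peaks in control HEPs and 373 in TAA HEPs. It held 480 in control HSCs and 511 in TAA HSCs, and 472 in control ECs and 376 in TAA ECs. From its start to the last peak end at 78083431 the arm spans 48.1 Mb, which is 3.58% of the span of the 25 chromosomes. It held 0.694% (TAA ECs, interval 0.627 to 0.767) to 0.921% (control ECs, 0.842 to 1.01) of the peaks of a list. HSCs had the most arm peaks under both treatments, but their lists were also the longest, with 55293 and 61245 peaks. With every list reduced to its best 41563 peaks, HSCs had 310 arm peaks in control and 268 after TAA. Control ECs then had the most control peaks (339), and TAA HEPs the most TAA peaks (338).

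Per megabase, the arm held 6.68 peaks in control HEPs, 7.76 in TAA HEPs, 9.98 in control HSCs, 10.6 in TAA HSCs, 9.82 in control ECs and 7.82 in TAA ECs. The rest of the same chromosome held 37.2 to 56.3 peaks per megabase in the 6 lists, above the highest of the 24 other chromosomes in each list. The sparsest other chromosome held 27.8, 30.9, 38.3, 41.8, 34.9 and 34.1 peaks per megabase in the same order of lists. The median of the other chromosomes was 3.96 (control ECs) to 5.41 (TAA ECs) times the density of the arm. In base pairs, peaks covered 0.116% to 0.188% of the arm and 0.600% to 0.926% of the other chromosomes.

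**Figure D1:**
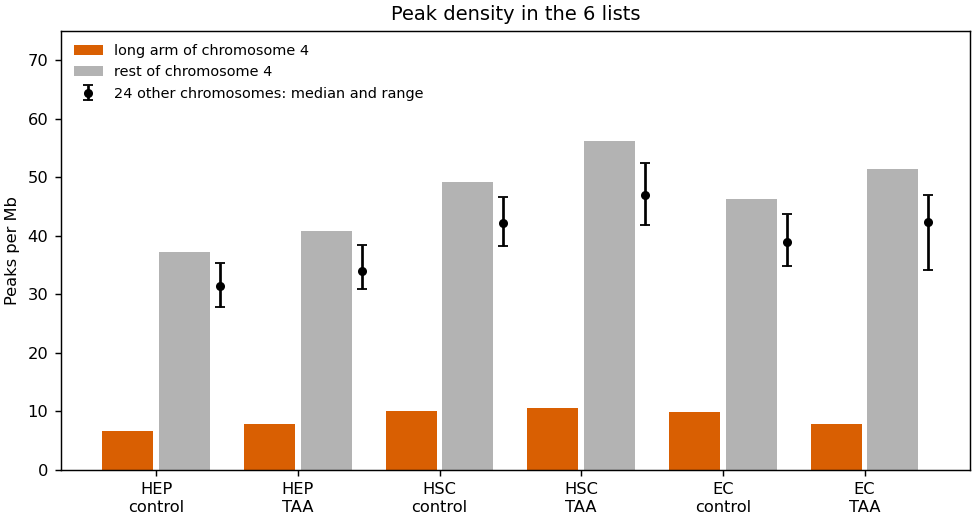
Peaks per megabase (y axis) in each of the 6 peak lists (x axis) on the long arm of chromosome 4 (orange bars) and on the rest of chromosome 4 (grey bars), with the median (black point) and the range (black line) of the 24 other chromosomes. Each bar is 1 pooled list and has no replicate error. The arm lies between 6.68 and 10.6 peaks per megabase, below every other chromosome in each list.

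The density fell around the start of the arm. Between 25 and 30 Mb the 6 lists held 141 to 193 peaks. Between 30 and 35 Mb they held 17 to 40. Windows of 1 Mb varied before the boundary, with 14 to 17 peaks from 26 Mb, 43 to 65 from 28 Mb and 12 to 20 from 29 Mb. The 6 lists then held 3 to 14 peaks from 30 Mb and 9 to 13 from 31 Mb. The window from 29 Mb was thus no exception on the rest of the chromosome, and the fall cannot be placed more closely from these counts. The last peak before the boundary was the same accessible site in all 6 lists, starting between 29966965 and 29966979 with scores of 933 to 2204. The score is the authors' own, a q-value as its negative log10 multiplied by 10, with a lowest value of 50 to 52 and a highest of 3240 in these lists. The first peak inside the boundary was found at 30136573 to 30291360, with scores of 89 to 488, so the closest members to the boundary were weaker in every list than the last peak outside it.

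Beyond the boundary the arm divided into a long sparse part and a denser end. The split at 70 Mb was chosen after the values were seen. The 8 windows of 5 Mb between 30 and 70 Mb held 11 to 54 peaks each. Among the 257 whole windows of 5 Mb in the genome they were the 8 lowest in each of the 6 lists. The next lowest window lay on chromosome 12 from 40 Mb in every list and held 59 to 103 peaks. From 70 Mb to the end the arm held 21.2 to 30.4 peaks per megabase, against 3.75 to 6.62 between 30 and 70 Mb, a ratio of 4.29 (control HSCs) to 6.96 (TAA HEPs). Stretches of the same length at the ends of the other chromosomes held at least 21.3 to 30.8 peaks per megabase, depending on the list. The end of the arm was below all of them in 3 lists (control HEPs and both HSC lists) and above 1 to 3 of them in the others.

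**Figure D2:**
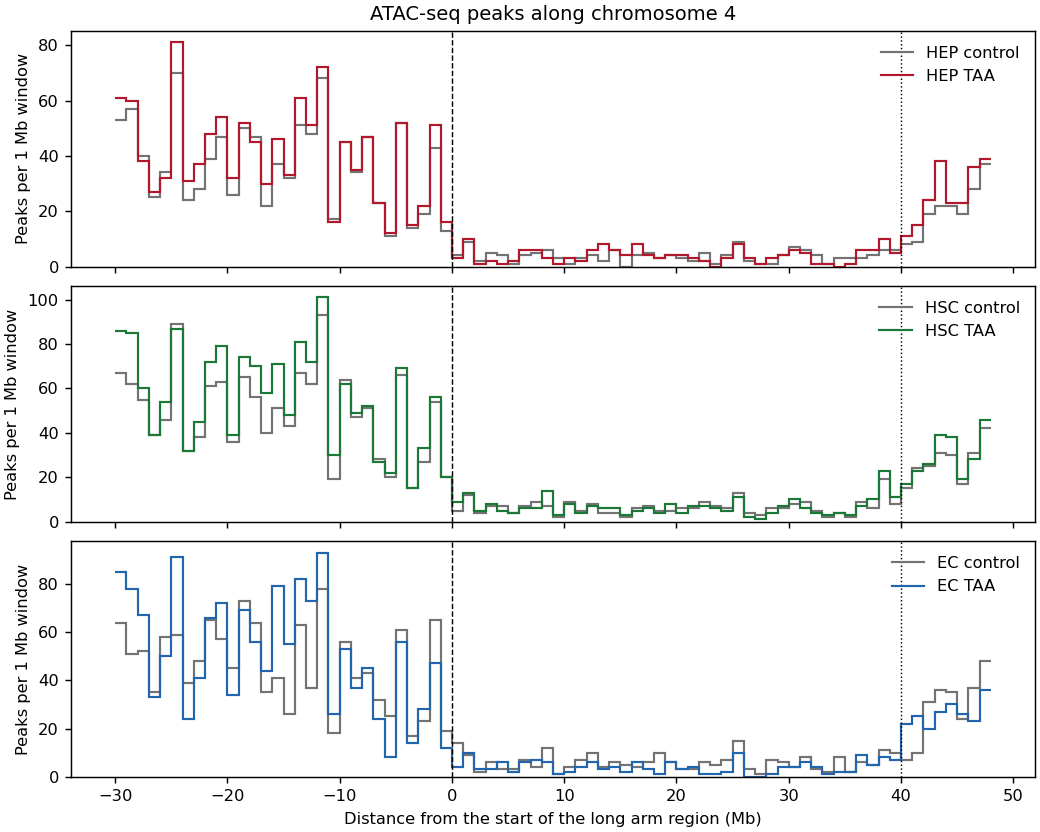
Peaks per window of 1 Mb (y axis) along chromosome 4, by distance from the start of the long arm region at 30 Mb (x axis, Mb; dashed line), for HEPs, HSCs and ECs, with control in grey and TAA in colour. The dotted line marks 70 Mb, and the last window, which is not whole, is not drawn. Counts vary from window to window before the dashed line, fall around it in all 6 lists and rise again in the last 8 Mb.

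Merging overlapping peaks of the 6 lists gave 883 accessible regions on the arm, of 92012 in all. Of these, 393 regions (44.5%) lay from 70 Mb on, on 16.8% of the arm's span. The 3 richest windows of 1 Mb were those from 77 Mb with 73 regions, from 76 Mb with 58 and from 74 Mb with 57. The median distance between neighbouring regions was 19835 bp on the arm and 6336 bp on the other chromosomes. Between 30 and 70 Mb it was 39179 bp, and from 70 Mb on it was 11159 bp. The longest stretch without a peak in any list ran from 45480282 to 46771657, or 1.29 Mb. The longest such stretch on any other chromosome was 0.787 Mb. The arm had 5 stretches over 500 kb without a peak, and the 24 other chromosomes had 7 in all. Of the distances between neighbours on the arm, 15.6% were under 1 kb. This was near the 14.7% of the other chromosomes and the 16.7% of the rest of chromosome 4. The share was 12.7% between 30 and 70 Mb and 19.4% from 70 Mb on.

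Arm peaks were also weaker within their lists. Scores depend on depth, so they were turned into percentiles within each list (100 is the best peak). The median percentile of arm peaks was 35.9 in control HEPs, 38.4 in TAA HEPs, 36.9 in control HSCs, 34.2 in TAA HSCs, 34.0 in control ECs and 37.1 in TAA ECs. The medians of single other chromosomes lay between 46.7 and 55.2 over all lists, so the arm was lowest in every list. Between 3.13% (TAA HSCs, 1.94 to 5.03) and 4.87% (control ECs, 3.27 to 7.21) of arm peaks were in the best 10% of their list. In the sparse part the median percentile was 27.4 to 35.7 and in the last part it was 37.6 to 43.6, higher in each list. The intervals of the parts did not overlap in control HSCs (28.3 to 36.9 and 38.7 to 50.9) and control ECs (22.6 to 32.9 and 36.4 to 47.7), and overlapped in the other lists.

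Arm peaks were narrower. Their median width was 156 bp in both HEP lists, 162 and 163 bp in control and TAA HSCs, and 154 and 168 bp in control and TAA ECs. The medians over the other chromosomes were 177, 173, 183, 182, 182 and 184 bp in the order HEPs, HSCs and ECs, control before TAA. Weak peaks are narrow, so widths were also compared within classes of score rank. When each list was cut into 5 quintiles of equal size by score, arm peaks had the smaller median width in 26 of 30 cases. In the best quintile this held in 6 of 6 lists, with 222 against 257 bp in control HSCs and 257 against 264 bp in TAA ECs as examples. The differences ran from -35.0 bp (control HSCs, best quintile) to 4.50 bp (TAA ECs, second quintile) and have no interval. Ranks were not matched within a quintile. In control HSCs 19 of the 47 arm peaks of the best quintile were in the best 10% of the list.

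Although most arm peaks were narrow, the widest peak of 4 of the 6 lists lay on the arm, and in all 4 it was at the same place. The 3 widest merged regions were chosen after their widths were seen. The first ran from 55759264 to 55760905 and was 1642 bp wide. It was a single peak of 1601 bp in control HEPs and of 1591 bp in TAA ECs, each the widest of its list. It held a peak of 1321 bp in TAA HSCs and of 959 bp in TAA HEPs, again the widest of their lists, beside a smaller neighbour of 213 and 496 bp. In control HSCs it was split into 3 peaks of 493, 700 and 228 bp, and in control ECs into peaks of 595 and 851 bp. The widest peaks of the other chromosomes were 879 to 1181 bp. The scores of these wide peaks were moderate, with a best percentile of 50.6 to 69.0 in the region across the 6 lists.

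The other regions of this kind lay within 10 kb of each other. The region from 36251081 to 36252053 was a single peak of 973 bp in control HEPs and of 933 bp in control HSCs. After TAA it was called as separate peaks of 421 and 134 bp in HEPs and of 455 and 402 bp in HSCs. In ECs it was split in both lists. The region from 36255530 to 36256438 was a single peak in all 3 control lists, of 893 bp in HEPs, 863 bp in HSCs and 880 bp in ECs. In the TAA lists its pieces were 187, 154 and 118 bp in HEPs, 454 and 275 bp in HSCs, and 459 and 192 bp in ECs. Its best percentile went from 79.1 to 72.3 in HEPs, from 84.8 to 88.1 in HSCs and from 83.0 to 91.3 in ECs, so the split was seen with lower and with higher ranks. These are single regions in pooled lists and have no error.

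The strongest regions that all 6 lists shared were concentrated in the dense end. Of the 134 shared regions, 84 lay from 70 Mb on and 50 between 30 and 70 Mb. The region from 71962121 to 71962485 ranked first by its mean percentile of 99.4, with percentiles of 98.3 to 99.9 in the 6 lists. The region from 63365102 to 63365348 had a mean percentile of 99.3 and lay in the sparse part, in a window of 1 Mb with 5 regions. The region from 72723361 to 72723770 followed with 99.0. At the highest score of 3240 were the peaks of the first region in both HSC lists and in control ECs, those of the second in both HSC and both EC lists, and those of the third in both HSC lists. The next 6 regions had mean percentiles of 91.4 to 96.7 and lay between 72390480 and 75293409. The tenth ran from 46771658 to 46771876 and directly bordered the longest empty stretch. Its percentile was 92.0 in control HEPs, 76.5 in TAA HEPs, 86.9 and 90 in control and TAA HSCs, and 96.9 and 93.8 in control and TAA ECs. Only 9 of the 134 shared regions had a mean percentile above 90, and 43 were below 50. The median was 58.1, against 70 for regions shared by all lists on the other chromosomes.

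Fewer arm regions were common to all lists. All 6 lists had a peak in 134 of 883 arm regions (15.2%, interval 13.0 to 17.7), against 23.0% on the other chromosomes with a range of 20.4% to 25.5% over single chromosomes. A single list had a peak in 342 arm regions (38.7%, 35.6 to 42.0), against 31.9% (29.4% to 34.9%). This excess was not seen among regions of similar best percentile over the lists. In the lowest class of best percentile 77.0% (71.7 to 81.5) of arm regions were in 1 list, against 79.8% elsewhere. In the best class the shares were 2.33% (0.640 to 8.09) and 5.83%. In every class the value elsewhere was inside the arm's interval. A region in more lists has more chances of a high best percentile, which limits this comparison. Without the EC control list, 22.5% of arm regions were in all of the remaining 5 lists against 41.5% elsewhere, and 35.2% were in 1 list against 22.9%. This alternative was chosen after seeing the data. The sharing was also compared by the score rank of a peak in its own list alone, a comparison added after the values were seen. In control HEPs 41.4% of arm peaks (36.2 to 46.9) overlapped a peak in each of the other 5 lists, against 51.1% elsewhere and 42.8% when the other chromosomes had the rank composition of the arm. For TAA HEPs the values were 36.7% (32.0 to 41.7), 47.6% and 40.2%, and for control HSCs 28.1% (24.3 to 32.3), 38.4% and 28.9%. The lower sharing was thus within counting error at equal rank in these 3 lists. Control ECs remained lower on the arm, with 28.6% (24.7 to 32.8) against 33.9% at equal rank. In the other lists the arm was higher at equal rank, with 26.8% (23.2 to 30.8) against 22.5% in TAA HSCs and 36.2% (31.5 to 41.1) against 29.6% in TAA ECs.

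**Figure D3:**
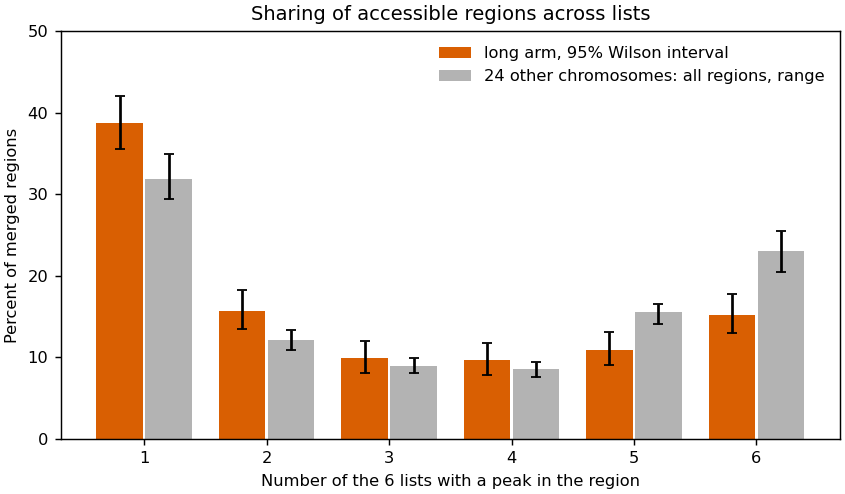
Percent of merged accessible regions (y axis) by the number of the 6 lists with a peak in the region (x axis), on the long arm of chromosome 4 (orange, 883 regions, bars of error are 95% Wilson intervals) and on the 24 other chromosomes (grey, lines are the range over single chromosomes). Regions in 1 list make up 38.7% of the arm and 31.9% elsewhere, and regions in all 6 lists make up 15.2% and 23.0%. The shares drawn are not at equal score rank.

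The regions found in 1 list were not distributed over the lists as elsewhere. Regions found in control HEPs alone were 24 (2.72% of arm regions, interval 1.83 to 4.01), against 0.705% on the other chromosomes. Those found in TAA HEPs alone were 26 (2.94%, 2.02 to 4.28), against 0.737%. Those found in control HSCs alone were 61 (6.91%, 5.42 to 8.77), against 2.67%. Those found in TAA HSCs alone were 71 (8.04%, 6.42 to 10.0), against 6.89% and at most 7.92% on a single other chromosome. Each of these 4 arm shares was above that of every other chromosome, but for TAA HSCs the highest other chromosome was inside the arm's interval. Regions found in TAA ECs alone were 26 (2.94%), inside the range of 2.29% to 4.53%. Regions found in control ECs alone were the most numerous with 134, and their share of 15.2% lay inside the range of 14.3% to 20% of the other chromosomes. Regions in all lists but that of control ECs were 35 (3.96%, 2.86 to 5.46), against 11.3%. Among the control lists, 25.4% of arm regions open in any control list were open in all 3 cell types, against 33.1% elsewhere. Among the TAA lists the shares were 34.9% and 53.3%. None of the shares in this paragraph was compared at equal score rank.

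Pairs of lists were less alike on the arm, except those that included control ECs. For the 10 pairs without that list, the Jaccard index was 0.423 to 0.537 on the arm, and each was below all 24 other chromosomes. Control and TAA HEPs had an index of 0.448 on the arm and 0.667 elsewhere. The lowest value on another chromosome was 0.644. For control and TAA HSCs the values were 0.530 and 0.625. For the 5 pairs with the EC control list the index was 0.314 to 0.349 on the arm and 0.291 to 0.378 elsewhere. Control and TAA ECs had 0.314 on the arm and 0.291 elsewhere, and the arm was inside the range of single chromosomes (0.259 to 0.318). TAA HSCs and control ECs were more alike on the arm, with 0.349 against at most 0.331 on a single other chromosome. The indices were not compared at equal score rank.

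To describe the response to TAA, the lists of a cell type were overlaid. Control peaks that shared no base pair with a TAA peak are here called lost, and TAA peaks that shared none with a control peak are called gained. In HEPs, 102 of 321 arm peaks were lost (31.8%, interval 26.9 to 37.1), where 14.2% of all HEP control peaks were lost. On the other chromosomes 14.1% were lost, with a range of 12.4% to 15.9%, and the difference was 17.7 percentage points (12.9 to 23.0). Gained HEP peaks numbered 150 of 373 (40.2%, 35.4 to 45.3), where 20.1% of all HEP TAA peaks were gained. Elsewhere the share was 19.9% (17.5% to 22.4%), and the difference was 20.3 points (15.4 to 25.4). The arm thus had the highest lost and gained shares of any chromosome in HEPs, in both directions at once.

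In HSCs, 126 of 480 arm peaks were lost (26.2%, 22.5 to 30.4), where 16.3% of all HSC control peaks were lost. The difference from the other chromosomes was 10.0 points (6.29 to 14.2). Gained HSC peaks numbered 157 of 511 (30.7%, 26.9 to 34.9), where 24.8% of all HSC TAA peaks were gained, and the difference was 6.05 points (2.19 to 10.2). The gained difference changed sign in the best 20000 peaks of each list, with 12.0% on the arm and 15.5% elsewhere.

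In ECs the arm lost more and gained less. Lost EC peaks numbered 260 of 472 (55.1%, 50.6 to 59.5), where 48.4% of all EC control peaks were lost. The difference was 6.73 points (2.20 to 11.2), and the arm was just above the highest other chromosome at 54.9%. Gained EC peaks numbered 166 of 376 (44.1%, 39.2 to 49.2), where 51.1% of all EC TAA peaks were gained. The difference was -6.96 points (-11.9 to -1.88), and the arm was below the lowest other chromosome at 46.6%.

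**Figure D4:**
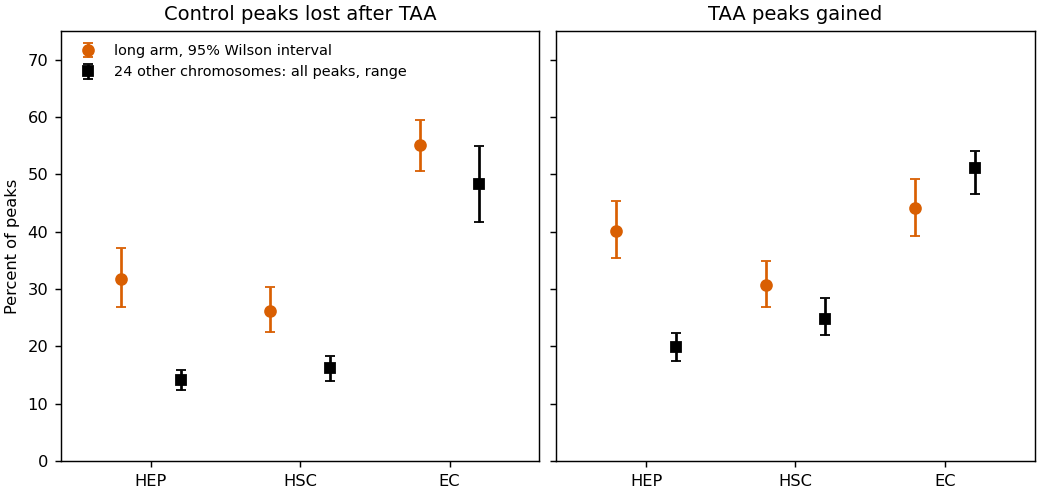
Percent of control peaks lost (left) and of TAA peaks gained (right) in HEPs, HSCs and ECs (x axis), on the long arm of chromosome 4 (orange points with 95% Wilson intervals) and over all peaks of the 24 other chromosomes (black squares, with the range of single chromosomes). The arm is above the other chromosomes in 5 comparisons, by most in HEPs (31.8% against 14.1% lost, 40.2% against 19.9% gained), and below them for gained EC peaks (44.1% against 51.1%).

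On the other chromosomes weak peaks were lost and gained more often than strong ones in each cell type, and arm peaks are weak, so shares were compared at equal score rank. If the other chromosomes had the rank composition of the arm, 19.2% of HEP peaks would be lost and 25.4% gained. The arm was above both values, at 31.8% and 40.2%. In HSCs the same calculation gave 21.3% lost, below the 26.2% of the arm, and 34.1% gained, above the 30.7% of the arm. In ECs it gave 53.8% lost, close to the 55.1% of the arm, and 58.0% gained, above its 44.1%. The higher lost share of ECs and the higher gained share of HSCs on the arm were thus not seen at equal rank, whereas the values for HEPs, the lost share of HSCs and the lower gained share of ECs were.

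The separate quintiles are given next. HEP losses on the arm exceeded the other chromosomes in the lowest quintile (59.8% against 43.5%), the second (33.7% against 19.4%), the middle (21.7% against 6.47%) and the fourth (6.52% against 1.06%). In the best quintile 0 of 28 HEP arm peaks were lost, which allows a share of up to 10.7%. Gained HEP peaks were in excess in the second quintile (54.4%, 44.8 to 63.7, against 32.9%) and in the middle one (33.8%, 24.2 to 44.9, against 9.97%). Even in the best quintile 3 of 41 were gained (7.32%, 2.52 to 19.4), where the other chromosomes had 0.115%. HSC losses did not exceed the other chromosomes beyond counting error in the lowest quintile (46.4%, 38.3 to 54.7, against 45.9%) and did in the middle one (20.8%, 13.9 to 30, against 9.93%). HSC gains were fewer on the arm in the second quintile (28.8%, 22.0 to 36.6, against 42.1%), and in the lowest they were 66.7% (58.7 to 73.8) against 65.8%. EC losses crossed over. They were more frequent on the arm in the lowest quintile (86.0%, 79.4 to 90.8, against 70.9%) and less frequent in the fourth (28.3%, 18.5 to 40.8, against 42.7%). EC gains were fewer on the arm in the 4 lower quintiles and more frequent in the best, where 13 of 31 peaks were gained (41.9%, 26.4 to 59.2, against 25.6%).

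**Figure D5:**
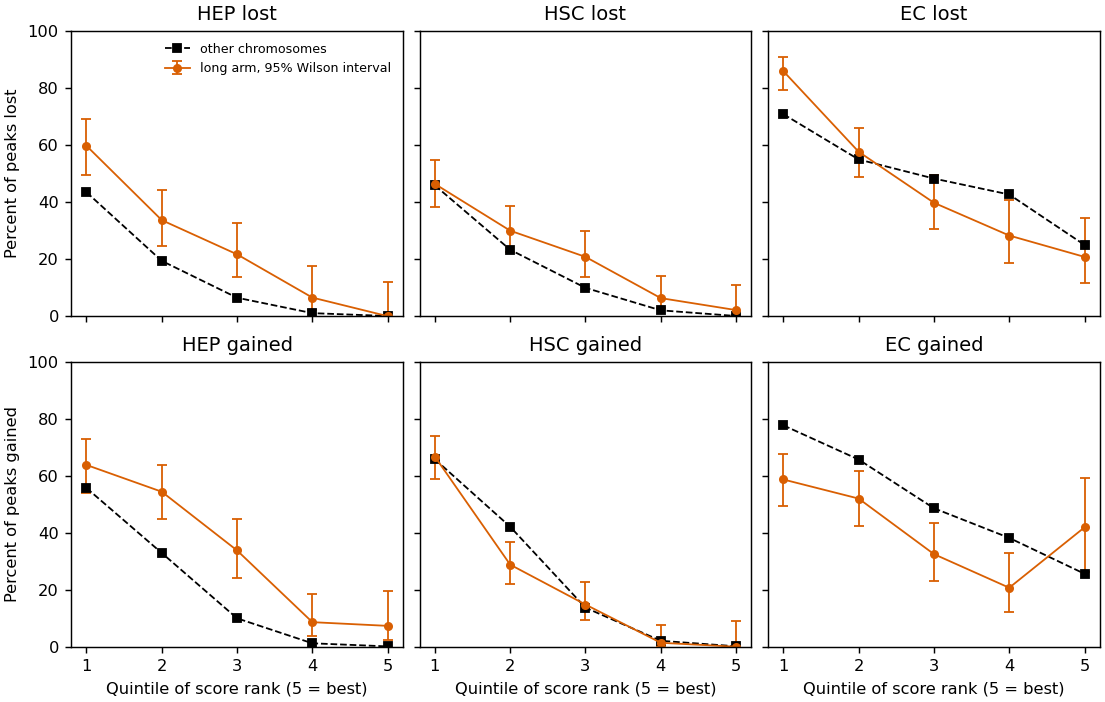
Percent of peaks lost (upper row) or gained (lower row) in HEPs, HSCs and ECs by quintile of the score rank within the list (x axis, 5 is the best), on the long arm of chromosome 4 (orange, with 95% Wilson intervals) and on the other chromosomes (black squares). HEP losses on the arm lie above the other chromosomes in the 4 lower quintiles, and HEP gains in every quintile. In the lowest quintile the interval of HEP gains (53.8 to 72.8) includes the 55.7% of the other chromosomes. EC gains on the arm lie below the other chromosomes in the 4 lower quintiles.

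Losses were more frequent in the sparse part of the arm, which also held the weaker peaks. Between 30 and 70 Mb, 46.0% (38.2 to 54.0) of HEP peaks, 35% (29.4 to 41.0) of HSC peaks and 64.7% (58.4 to 70.5) of EC peaks were lost. From 70 Mb on the lost shares were 19.3% (14.1 to 25.9), 16.1% (11.9 to 21.5) and 45.3% (39.0 to 51.7). These intervals do not overlap in any cell type. HSC losses from 70 Mb on were at the level of the other chromosomes (16.2%). Gained shares differed in the same direction, with 45.2% and 36.7% in HEPs, 37% and 24% in HSCs, and 47.8% and 41.5% in ECs. The intervals of gained shares overlapped in HEPs and ECs and not in HSCs. The parts were then set against the other chromosomes at the rank composition of each part, a comparison added after the values were seen. For the sparse part this gave 20.8% lost in HEPs, 23.3% in HSCs and 56.3% in ECs, each below its value. For the dense end it gave 17.8%, 19.1% and 51.3% lost. Each of these lay inside the interval of the lost share there, so losses in the dense end were within counting error at equal rank. For gains it gave 26.9% in HEPs, 37.0% in HSCs and 60.2% in ECs in the sparse part. In the dense end it gave 24.3%, 31.1% and 56.3% gained. HEP gains were above these values in both parts, by 12.4 points in the dense end, and EC gains were below them in both. HSC gains were level with the value in the sparse part and below it in the dense end.

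The number of arm peaks went in different directions in the 3 cell types. In HEPs the arm went from 321 to 373 peaks, a ratio of 1.16, where single other chromosomes had ratios of 1.04 to 1.12. The rest of chromosome 4 had a HEP ratio of 1.10. In HSCs the arm went from 480 to 511, a ratio of 1.06, at the lower end of the other chromosomes (1.06 to 1.16). In ECs it went from 472 to 376, a ratio of 0.797, below all other chromosomes (0.948 to 1.18). These ratios have no interval. As a share of the list, control and TAA intervals overlapped in HEPs and in HSCs, and not in ECs. The rest of chromosome 4 went from 1390 to 1542 peaks in ECs, so the lower number was found on the arm and not on the rest of the chromosome. With every list reduced to its best 41563 peaks, HEPs had 321 and 338 arm peaks, HSCs 310 and 268, and ECs 339 and 247. The higher number in HSCs after TAA thus turned into a lower one in lists of equal length.

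The lower number of EC peaks was spread along the arm. In 9 of 10 windows of 5 Mb the TAA list held fewer peaks than the control list. The exception was the window from 70 to 75 Mb with 119 and 124 peaks. Between 30 and 70 Mb the EC count went from 238 to 159, a ratio of 0.668, and from 70 Mb on from 234 to 217, a ratio of 0.927. In HEPs the net rise lay mostly in the dense end, which went from 171 to 218 peaks (1.27) while the sparse part went from 150 to 155. Gained HEP peaks lay in both parts, with 70 in the sparse part, where 69 were lost, and 80 in the dense end, where 33 were lost. In HSCs the counts were 257 and 265 in the sparse part and 223 and 246 in the dense end.

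Peaks that were kept also moved in rank. In ECs the 209 arm regions open in both lists had a median percentile shift of -9.52 points after TAA, against 0.224 on the other chromosomes. In HEPs the shift was 2.78 on the arm and 1.30 elsewhere, and in HSCs 0.277 and 2.63. The median size of the shift in either direction was 13.4 points in HEPs (10.3 to 16.2), above the 7.62 to 8.66 of single other chromosomes. It was 14.3 points in ECs (12.4 to 17.5, other chromosomes 10.3 to 12.4) and 8.97 in HSCs (7.69 to 10.1, other chromosomes 7.16 to 8.52). The HSC interval overlaps the range of the other chromosomes, and the EC interval starts at the top of it. The shifts were not compared at equal score rank. The signed shifts have no interval, and those of ECs rest on the EC control list.

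Changed peaks of the arm were looked up in the lists of the other cell types. Of the HSC peaks lost on the arm, 26.2% (19.3 to 34.5) overlapped a control EC peak, against 58.6% of those lost elsewhere (52.5% to 65.0%). Of the HSC peaks gained, 29.9% (23.3 to 37.5) overlapped a control EC peak against 14.7%, and 27.4% (21.0 to 34.8) overlapped a TAA EC peak against 46.6%. HSC changes elsewhere thus lay at sites of the EC list of the same treatment more often than on the arm. Of the EC peaks lost on the arm, 30.4% (25.1 to 36.2) were open in TAA HSCs, against 13.2% elsewhere (9.87% to 15.7%). Of the EC peaks gained, 68.7% (61.3 to 75.2) were open in TAA HSCs, against 83.2%. Of the HEP peaks gained, 39.3% (31.9 to 47.3) were open in TAA ECs, against 61.6%. Changed HEP and HSC arm peaks were less often known from any list of another cell type, with 76.5% against 88.9% for HEP losses, 82.7% against 92.4% for HEP gains and 51.6% against 72.6% for HSC losses. For HSC gains the shares were 54.8% (47.0 to 62.4) and 58.1%, which is inside that interval. For EC gains they were 84.3% (78.0 to 89.1) and 87.9%, again inside the interval. For EC losses it was the reverse, with 48.5% on the arm and 35.9% elsewhere. These shares were not compared at equal score rank.

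The highest ranked changed peaks were found in ECs. The strongest lost EC peak ran from 74359782 to 74360134 with a score of 1902 at percentile 96.5 in control ECs, and the same region had percentiles of 21.7 and 2.18 in control and TAA HSCs. The second ran from 74367851 to 74368108, at percentile 95.7, and was open in control ECs alone. These peaks lay within 10 kb of each other. The third, from 65210472 to 65210694 at percentile 95.3, was open in all lists but TAA ECs, with percentiles of 5.61 to 63.3 in HEPs and HSCs. The fourth and the fifth, from 75511563 to 75511786 and from 76575407 to 76575634, had equal scores of 1457. Both were open in both HEP lists, and the latter also in both HSC lists.

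Each of the 5 strongest gained EC peaks was open in both HEP and both HSC lists, as were the third and the fifth of the lost ones. The first ran from 42938043 to 42938302 with a score of 2438 at percentile 96.4 in TAA ECs, and had percentiles of 61.0 to 91.2 in HEPs and HSCs. The second ran from 75157184 to 75157446 at percentile 94.8. The third ran from 77413611 to 77413915 at percentile 94.0 and had percentiles of 91.5 to 93.3 in HEPs and HSCs. The others ran from 55452956 to 55453234 and from 74833247 to 74833517, at percentiles 91.5 and 90.9. The EC control list was the only one without a peak at these 5 sites. Such a pattern was not particular to the arm. Regions in all lists but that of control ECs were 3.96% of arm regions and 11.3% of those elsewhere. Of all EC peaks gained, 84.3% on the arm and 87.9% elsewhere overlapped a peak of another cell type.

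Changed peaks of HSCs and HEPs ranked lower, and on the other chromosomes too their strong peaks seldom changed. The strongest lost HSC peak ran from 66529828 to 66530010 at percentile 86.2, and its region was open in both HEP lists and in TAA ECs. The next lost HSC peaks ran from 57093678 to 57093894 at percentile 73.9 and from 56953322 to 56953503 at percentile 72.2, and both were open in both HEP lists. The strongest gained HSC peaks ran from 31233233 to 31233417, from 62520441 to 62520596 and from 78005291 to 78005449, at percentiles 72.9, 57.0 and 55.9. The first of these was open in all lists but control HSCs.

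The strongest lost HEP peak ran from 34483520 to 34483696 at percentile 71.9, with percentiles of 83.9 and 83.2 in control and TAA HSCs and 81.1 in TAA ECs. The next peaks ran from 75663354 to 75663516 at percentile 65.6 and from 55107448 to 55107590 at percentile 60.8, the latter with percentile 89.4 in control ECs. The strongest gained HEP peak ran from 73933714 to 73933914 at percentile 86.4, and was open in both HSC lists at percentiles 87.1 and 73.8. It was followed by peaks from 72287532 to 72287704 at percentile 85.9 and from 42411611 to 42411795 at percentile 83.0. Each of the 6 named HEP peaks was open in a list of another cell type. Most changed HEP peaks were, with 76.5% of losses and 82.7% of gains on the arm. Elsewhere the shares were 88.9% and 92.4%, so this was not particular to the named peaks.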

How the data were processed

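Peak lists of 18 ATAC-seq libraries (pairs of 75 bp reads) were used. The authors trimmed reads with cutadapt 1.18, aligned them to GRCz11 with Bowtie2 2.3.4.3 and filtered them by quality with SAMtools. They kept short fragments and called peaks with MACS2 2.1.0.2 on tracks of the 3 libraries of a group combined by Fisher's method. Their methods discard peaks over low-complexity regions with bedtools 2.27.1, a step not checked in the deposited lists. The deposited score of a peak is a q-value on a log scale (10 times the negative log10), and the lowest score of 50 equals a q-value of 1e-05. The deposited columns for fold enrichment, p-value and q-value held 0 and were not used. Depth is unknown. Pooled lists allow no test across replicates, so all values are descriptions without a test between groups. Which fish went into which library is not stated.

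Files were read in Python 3.11.15 with numpy 2.4.6, pandas 2.3.3 and scipy 1.17.1, and figures were drawn with matplotlib 3.10.9. Coordinates count from 1. Density was computed up to the last peak end of a chromosome and was not adjusted for sequence to which reads cannot be assigned. Percentiles are ranks of the score within a list. Regions are peaks of the 6 lists merged where they overlap by at least 1 bp. Shares have Wilson 95% intervals, their differences Newcombe intervals, and medians intervals from order statistics. Where a count was 0, the limit is the share that 3 counts make. Overlap and merging were tested on simulated peaks. Named were the 10 shared regions with the best mean percentile, the 5 best lost and gained peaks of ECs and the 3 best of HSCs and HEPs, the 3 richest windows of 1 Mb and the longest empty stretch. The members, lists and rules were chosen with earlier results of these data known. Alternatives were the best 41563 or 20000 peaks of each list, a reciprocal overlap of 50%, the summit of a peak inside the peak of the other list, a start at 35 Mb and base pairs in place of peaks.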

Additional observations from a re-analysis of the deposited data

Results flagged for a closer look

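The number of arm peaks and the share of the list on the arm moved in different directions after TAA in the 3 cell types. Arm peaks changed by 52 in HEPs, by 31 in HSCs and by -96 in ECs. The share of the list on the arm changed by 0.0631 percentage points in HEPs, by -0.0337 in HSCs and by -0.227 in ECs. Control and TAA intervals of the share overlapped in HEPs (0.693% to 0.861% and 0.755% to 0.924%). They also overlapped in HSCs (0.794% to 0.949% and 0.765% to 0.910%), so neither change was beyond counting error. The EC intervals (0.842% to 1.01% and 0.627% to 0.767%) did not overlap. Each value compares 1 pooled list with another, so the difference between cell types was not tested. In lists reduced to their best 41563 peaks the change was 17 peaks in HEPs, -42 in HSCs and -92 in ECs, and with the best 20000 it was 20, -29 and -29. The opposite directions of HEPs and ECs were present in each of these settings, and by peak number HSCs were on the side of HEPs only in the full lists. The EC control list, which stood apart from the other lists genome-wide, is one side of the EC values, and its part in them was not tested.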

How the results depend on the processing

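No paired analysis was possible because each list pools the 3 libraries of its group, and for the same reason no replicate could be left out. Of 80 alternative values of 26 results, 52 stayed inside the 95% interval of the reported value. In lists reduced to their best 20000 peaks the share of the list on the arm was 0.495% and 0.595% in control and TAA HEPs, 0.520% and 0.375% in HSCs, and 0.530% and 0.385% in ECs. Median widths on the arm were then 185, 191, 206, 219, 208 and 218 bp in the same order, each below the other chromosomes. With the best 41563 peaks the shares were 0.746% and 0.645% in HSCs and 0.816% and 0.594% in ECs. Counted in base pairs they were 0.752% in TAA HEPs, 0.765% and 0.745% in HSCs and 0.794% in control ECs. The lost share was 25.3% in HEPs and 60.4% in ECs with the best 20000 peaks, and 32.9% and 36.5% in HSCs with the best 41563 and 20000. The gained share of HSCs was 22.0% and 12.0%, against 17.1% and 15.5% on the other chromosomes, so its side changed with the best 20000 peaks. The arm was above the other chromosomes in 6 of 6 settings for the lost share of each cell type and the gained share of HEPs. It was above them in 5 of 6 for the gained share of HSCs and in 0 of 6 for that of ECs. The reported setting was counted as 1 of the 6, and none of them matched score rank. At equal rank the lost share of ECs was 55.1% on the arm against 53.8%, and the gained share of HSCs was 30.7% against 34.1%. Without the EC control list the share of regions in all lists was 22.5% and in 1 list 35.2%. Causes of these shifts were not tested. Depth is unknown, and the quintiles of score rank hold 28 to 147 arm peaks, which limits each of their shares.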
